A study of Homo sapiens with 2 samples.

Results

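The genes described here are the 95 of 19198 named genes in the deposited expression tables whose symbol starts with KCN, which is the gene name root of potassium channel subunits. They were chosen by symbol, and KCNA5 was in addition singled out because it was already known from these tables to be higher after NICD1 overexpression, so its values are given as a description. The tables come from mRNA sequencing of polyA RNA from cells labelled A549, which is a long-used line of human lung adenocarcinoma and serves as a model of non-small-cell lung cancer (NSCLC). In A549-NICD1, the cells overexpressed NICD1, the intracellular domain that is released when the NOTCH1 receptor is activated. In A549-Vector, the cells carried the vector as control. Per the study's methods, the NICD1 open reading frame was placed in a pSin-EF2 lentiviral vector, and stable lines were obtained by viral infection followed by antibiotic selection. With 1 library per condition, differences have no replicate check, no p-value is given, and every interval covers counting error only.

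Potassium channels are membrane proteins that let potassium ions leave or enter the cell along their gradient and so set the resting potential and end electrical impulses. The pore is built by alpha subunits, which fall into voltage-gated channels (KCNA to KCND, KCNH, KCNQ and the modifying KCNF, KCNG, KCNS and KCNV subunits), inward rectifiers (KCNJ), tandem-pore domain leak channels (KCNK) and channels opened by calcium or sodium ions (KCNM, KCNN and KCNT). Auxiliary subunits such as KCNAB, KCNE, KCNIP and KCNMB do not form a pore but change how an alpha subunit reaches the membrane or opens. In epithelial and tumor cells, these channels are known for roles in volume control, secretion and the cell cycle rather than in impulses.

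NOTCH1, the overexpressed gene, was at 5.40 FPKM (reads scaled by gene length and by depth) in A549-Vector and at 2865 FPKM in A549-NICD1. RFC4, a replication factor subunit that the study also expressed from vectors, was at 39.5 FPKM in A549-Vector against 4075 FPKM in A549-NICD1. It is not named in the label of that library. RFC4 was above NOTCH1 in FPKM but not in reads, with 281203 against 1293833 in A549-NICD1. The reads of NOTCH1 were divided by a length of 9306 bases, those of RFC4 by 1422. The paper reports that NICD1 raises RFC4 and describes it as a direct target of Notch1 signaling. Where the RFC4 level comes from, and its part in the differences below, was not tested. The depth was 48602848 reads in A549-Vector and 48528434 reads in A549-NICD1. Levels in FPKM and their sums use these depths alone, while fold changes also use a scaling factor of 0.962. A small difference can therefore change direction between levels and fold changes. Of 10 markers of A549 cells, 7 were under 1 FPKM in both libraries, with KRT7, KRT19, FGB and CES1 at 0, and the summed level of the list was 14.3 FPKM in each library. Of 7 markers of HEK293 cells, a human embryonic kidney line, 6 reached 1 FPKM in both libraries. The summed level of this list was 236 FPKM in A549-Vector against 223 FPKM in A549-NICD1, with CDKN2A alone at 139 and 138 FPKM. Per its methods, the study also cultured HEK293FT cells. The labelled cell type therefore lacked several of its defining markers in both libraries alike, and what part this has in the levels below was not tested.

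KCNA5 codes for the alpha subunit of a voltage-gated channel of the Shaker type, known for the rapid repolarizing current of the atrium. GENCODE 29 places it on chromosome 12 from 5043989 to 5046788 of GRCh38, on the plus strand, in 1 exon whose coding part begins at 5044148. The 250 bases before its RefSeq start (GRCh38.p14, chr12:5043629-5043878, plus strand) are shown because KCNA5 had the largest log2 fold change of the potassium channel genes. They are set beside those of KCND2, another voltage-gated gene that was higher in A549-NICD1 (chr7:120272925-120273174, plus strand), and of KCNE5, an auxiliary gene that was lower (chrX:109625173-109625422, minus strand). Capitals mark TGGGAA, the core letters bound by RBPJ, the DNA-binding partner of NICD1, and both strands were searched.
KCNA5: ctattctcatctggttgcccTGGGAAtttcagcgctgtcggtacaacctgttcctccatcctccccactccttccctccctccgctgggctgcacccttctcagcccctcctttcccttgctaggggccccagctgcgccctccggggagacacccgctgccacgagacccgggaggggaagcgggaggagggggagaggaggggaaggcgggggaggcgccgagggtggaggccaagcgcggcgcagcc
KCND2: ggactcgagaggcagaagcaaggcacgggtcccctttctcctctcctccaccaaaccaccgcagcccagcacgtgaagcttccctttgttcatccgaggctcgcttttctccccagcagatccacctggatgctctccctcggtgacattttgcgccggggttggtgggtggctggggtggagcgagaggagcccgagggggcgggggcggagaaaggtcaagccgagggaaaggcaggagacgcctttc
KCNE5: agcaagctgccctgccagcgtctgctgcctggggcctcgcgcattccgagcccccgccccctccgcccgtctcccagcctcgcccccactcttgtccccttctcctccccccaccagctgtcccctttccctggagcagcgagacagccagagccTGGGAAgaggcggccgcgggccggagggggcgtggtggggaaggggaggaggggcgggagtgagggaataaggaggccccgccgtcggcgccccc
The letters stood 230 bases before the start of KCNA5 and 95 bases before that of KCNE5, while the window of KCND2 held none. RefSeq promoters were matched for 71 of the 95 genes, and 20 of them (28.2%) held the letters within 250 bases before a start. Over all 14514 genes with a matched promoter the share was 25.1%, so the letters were about as frequent before potassium channel genes as before other genes. Of the 7 potassium channel genes with a promoter and a log2 fold change above 1, only KCNA5 held the letters (14.3%). Of the 5 below -1, only KCNE5 held them (20%). A match is a description of these letters and not a binding site.

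KCNA5 was at 0.0358 FPKM in A549-Vector, with 5 reads (95% exact Poisson interval 0.0116 to 0.0836 FPKM), and at 1.63 FPKM in A549-NICD1, with 227 reads (interval 1.42 to 1.86 FPKM). It was thus near the detection limit in the control and a low but clearly detected transcript in the NICD1 cells. Its log2 fold change, taken on reads plus 0.5 over scaled depth, was 5.43 (95% Clopper-Pearson interval 4.32 to 7.20), and ranked 23 among the 15337 genes that had 10 or more reads in either library. Among the 95 potassium channel genes, its level ranked 73 in A549-Vector and 23 in A549-NICD1. The size of the change depends on the pseudocount, since with 1 FPKM added to each value the log2 fold change was 1.38.

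The other genes of the KCNA family, which code for the closest relatives of KCNA5, did not share one direction. KCNA1, an axonal channel subunit, was at 0.575 FPKM in A549-Vector against 1.18 FPKM in A549-NICD1, with a log2 fold change of 1.09 (interval 0.86 to 1.33). KCNA7 was at 0.541 FPKM in A549-Vector, with 115 reads, and at 0.0707 FPKM in A549-NICD1, with 15 reads. With a log2 fold change of -2.84 (interval -3.76 to -2.10), KCNA7 ranked 37 from the lowest of all genes tested for a difference. KCNA3, the main voltage-gated channel of lymphocytes, was at 0.797 and 0.503 FPKM, and its interval of -1.09 to -0.14 also lay below 0. The intervals of KCNA2 (0.753 and 0.627 FPKM), KCNA4 (0.0640 and 0.0641 FPKM) and KCNA6 (1.93 and 1.92 FPKM) held 0. KCNA10 was listed at 0 in both libraries, where a count of 0 allows up to 3 reads.

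The order of levels within the family therefore differed between the libraries. In A549-Vector KCNA6 came first, followed by KCNA3, KCNA2, KCNA1, KCNA7, KCNA4 and KCNA5. The counting intervals of KCNA6 and KCNA3 did not overlap, those from KCNA3 through KCNA7 overlapped from neighbour to neighbour, and KCNA4 and KCNA5 overlapped with each other but lay below the rest. In A549-NICD1 the order was KCNA6, KCNA5, KCNA1, KCNA2, KCNA3, KCNA7 and KCNA4. The interval of KCNA5 overlapped with that of KCNA6 (1.76 to 2.09 FPKM) and lay above that of KCNA1 (1.07 to 1.29 FPKM). The summed level of the family was 4.70 FPKM in A549-Vector against 5.99 FPKM in A549-NICD1.

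**Figure D1:**
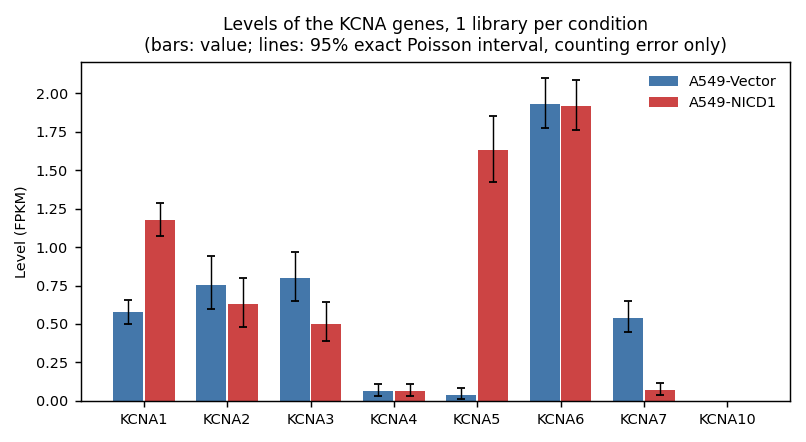
Level of each KCNA gene in FPKM (vertical axis) in A549-Vector (blue) and A549-NICD1 (red), 1 library each, with lines for the 95% exact Poisson interval. KCNA5 goes from 0.0358 to 1.63 FPKM and KCNA7 from 0.541 to 0.0707 FPKM, while KCNA6 stays at 1.93 and 1.92 FPKM.

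KCNA5 lies in a cluster with KCNA6 and KCNA1 on chromosome 12, and a window of 500 kb to each side of its start holds the starts of 8 genes of the tables, KCNA5 included, with starts taken by strand. The start of KCNA1 lay at -134 kb and that of KCNA6 at -235 kb from the start of KCNA5. Apart from KCNA5 and KCNA1, the neighbours had log2 fold changes between -0.18 for AKAP3 and 0.46 for NTF3, a neurotrophin. DYRK4, a kinase gene at 16.2 and 18.7 FPKM, was the only one of these others whose interval (0.18 to 0.34) did not hold 0. In GENCODE 29, KCNA6 lies within GALNT8, and all 100-base windows of its longest transcript (100%) also occur in transcripts named GALNT8 or KCNA5, so its reads cannot be assigned with certainty. For KCNA5 this share was 3.64%.

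**Figure D2:**
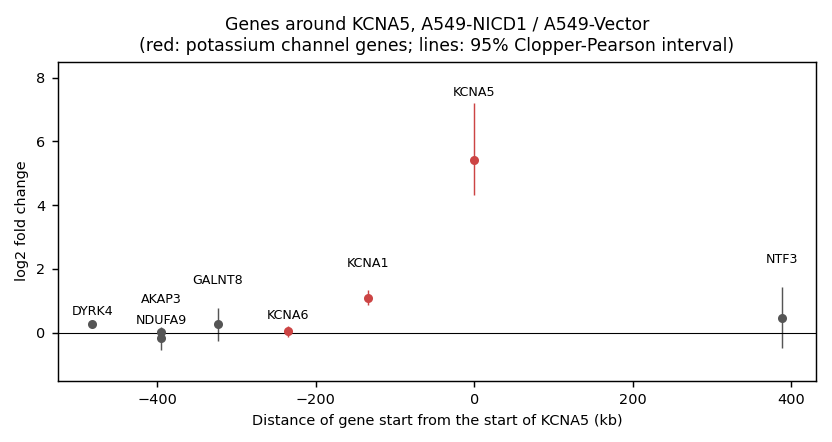
The log2 fold change (A549-NICD1 over A549-Vector, vertical axis) of the genes that start within 500 kb of KCNA5, against the distance of their starts in kb, with 95% Clopper-Pearson intervals and potassium channel genes in red. KCNA5 stands at 5.43 and KCNA1 at 1.09, and the others lie between -0.18 and 0.46.

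Across all 95 genes, 7 were listed at 0 in both libraries (KCNA10, KCNC2, KCNG4, KCNJ15, KCNK17, KCNK18 and KCNMB1), and 11 had reads but fewer than 10 in each library (KCNE3, KCNH7, KCNIP1, KCNJ6, KCNJ9, KCNJ16, KCNK10, KCNK16, KCNMB2, KCNN4 and KCNU1). In the remaining 77, the log2 fold change exceeded 1 for 10 and was under -1 for 5, against 4.43% and 2.25% of all genes that passed the same filter. The counting interval lay above 0 for 18 (23.4%) and below 0 for 25 (32.5%) of the 77, against 29.4% and 29.3% of all genes. The deposited values fix a gene's reads except for a whole-number factor, and with the smallest reads they allow, the intervals of KCNC4, KCND3, KCNH5, KCNJ5, KCNK3 and KCNS2 held 0. All 15 genes had a mean level under 1 FPKM, where large changes were frequent among all genes. Of the 48 potassium channel genes counted at that level, 10 (20.8%) were above 1 and 5 (10.4%) below -1, against 19.3% and 10.2% of all genes at that level. Intervals lay above 0 for 13 of them (27.1%) and below 0 for 11 (22.9%), against 24% and 18.6% of all genes at that level. The shares past 1 and -1 were near the background, so these counts are not a result about potassium channel genes. At a mean of 1 FPKM or more, 29 potassium channel genes were counted and none (0) was past a log2 fold change of 1 in either direction, against 0.718% of all genes above 1 and 0.261% below -1. The median log2 fold change over the 77 genes was 0.02, and 0.00012 over all genes. The counts rest on how few reads are treated, since a pseudocount of 0.1 FPKM left 2 genes above 1 (KCNA5 and KCNE4) and 3 below -1 (KCNA7, KCNE5 and KCNJ3).

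**Figure D3:**
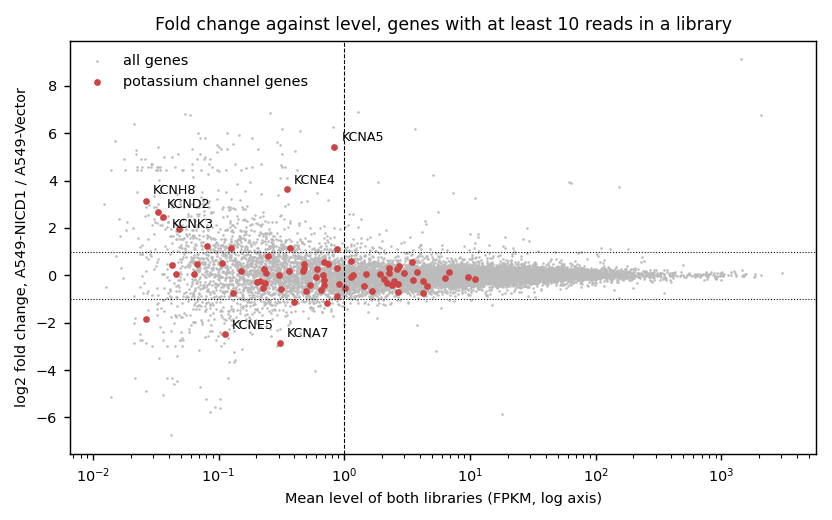
The log2 fold change (A549-NICD1 over A549-Vector, vertical axis) against the mean FPKM of both libraries (horizontal log axis), with all genes in gray, potassium channel genes in red, dotted lines at 1 and -1 and a dashed line at 1 FPKM. All 15 potassium channel genes past the dotted lines lie left of 1 FPKM, within the wide spread of other genes of such low levels.

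Among the auxiliary KCNE genes, which code for small single-pass membrane proteins that modify voltage-gated alpha subunits, KCNE4 and KCNE5 went in opposite directions. KCNE4, known as an inhibitory partner of KCNA and KCNQ channels, was at 0.0518 FPKM in A549-Vector, with 8 reads, and at 0.649 FPKM in A549-NICD1, with 100 reads. Its log2 fold change of 3.62 (interval 2.67 to 4.95) was the second highest of the potassium channel genes, after KCNA5. KCNE5 was at 0.196 FPKM in A549-Vector, with 14 reads, and at 0.0281 FPKM in A549-NICD1, with 2 reads, with a log2 fold change of -2.48 (interval -5.93 to -0.63). KCNE5 lies within ACSL4 on the same strand in GENCODE 29, and ACSL4 was at 53.5 and 43.7 FPKM. KCNE2, a partner of KCNH2 and KCNQ1, was at 0.692 and 0.667 FPKM. KCNE1, the partner of KCNQ1 in the slow cardiac current, was at 0.169 and 0.0938 FPKM with an interval that held 0, and 72.3% of its windows also occur in KCNE1B. KCNE3 had 1 and 6 reads and was not counted.

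In the whole auxiliary class, 6 of 13 counted genes had intervals below 0 and 2 had intervals above 0, against 29.3% and 29.4% of all genes. The 3 KCNAB genes, whose products bind the inner face of KCNA channels, were among those below 0. KCNAB2, the highest of them, was at 2.77 FPKM in A549-Vector against 1.99 FPKM in A549-NICD1, with a log2 fold change of -0.42 (interval -0.61 to -0.23), and KCNAB3 was at 1.23 and 0.813 FPKM. KCNMB4, a subunit of large-conductance calcium-activated channels, was at 3.37 and 2.01 FPKM, with a log2 fold change of -0.69 (interval -0.86 to -0.52), while KCNMA1, which codes for the pore of these channels, was at 0.237 and 0.193 FPKM with an interval that held 0. KCNIP3, a calcium-binding partner of KCND channels, was higher, at 2.43 and 3.07 FPKM with an interval of 0.18 to 0.61. KCNIP2, of the same family, was at 2.49 and 1.88 FPKM with an interval of -0.62 to -0.08. KCNRG, which encodes a cytoplasmic regulator of voltage-gated channels, was at 1.20 and 1.16 FPKM and shared 58.1% of its windows with TRIM13.

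Of the remaining voltage-gated genes, all 3 KCND genes, which code for rapidly inactivating channels, had intervals above 0 under the main scaling and reads. Their mean levels were under 1 FPKM, and the share was 29.4% of all genes and 24% of those under 1 FPKM. KCND2 had 2 reads in A549-Vector and 15 in A549-NICD1, with a log2 fold change of 2.69 (interval 0.86 to 6.14). It entered the counts only through A549-NICD1, the library where it was higher. KCND3 was at 0.232 and 0.503 FPKM, with a log2 fold change of 1.16 (interval 0.53 to 1.85, or -0.32 to 2.86 with the smallest whole reads). KCND1 was at 0.802 and 0.956 FPKM with an interval of 0.02 to 0.60. Its log2 fold change went from 0.309 to 0.253 with scaling by total depth, a shift larger than the distance of its lower limit from 0. The shared direction is therefore not a result about the KCND family. In the KCNH family, KCNH8 had 1 and 12 reads (interval 0.89 to 9.06) and KCNH6 had 14 and 30 reads (interval 0.20 to 2.19), both higher in A549-NICD1. KCNH5 had 24 and 6 reads (interval -3.52 to -0.61, or -7.56 to 1.40 with the smallest whole reads). KCNH2, which codes for the hERG channel of the heart and is the highest of this family, was at 5.37 FPKM in A549-Vector against 3.79 FPKM in A549-NICD1, with a log2 fold change of -0.45 (interval -0.60 to -0.30). Across the KCNH family, 2 intervals lay above 0 and 3, KCNH5 included, below 0 among 7 counted genes, against 29.4% and 29.3% of all genes.

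Among the subunits that modify KCNB channels, KCNG1 was the second highest of all potassium channel genes, at 10.2 and 9.26 FPKM with an interval that held 0. KCNF1 was at 0.557 and 0.243 FPKM, with a log2 fold change of -1.13 (interval -1.85 to -0.47). KCNS3 was at 2.06 and 1.24 FPKM, with an interval of -0.99 to -0.37. KCNS2 had 5 and 20 reads, with an interval of 0.60 to 3.83, or -1.28 to 7.68 with the smallest whole reads. KCNS2 lies opposite STK3, which was at 9.15 and 7.28 FPKM. KCNV2 was at 0.352 and 0.381 FPKM. KCNB2, which codes for a pore-forming partner of these subunits, was at 0.620 and 0.443 FPKM with an interval that held 0.

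The KCNC genes, which code for rapidly closing channels of fast-firing neurons, were among the better expressed ones. KCNC4 was at 6.73 and 5.90 FPKM, with an interval of -0.19 to -0.08 that held 0 with the smallest whole reads (-0.29 to 0.03). KCNC1 was at 2.87 FPKM in A549-Vector against 4.07 FPKM in A549-NICD1, with a log2 fold change of 0.56 (interval 0.46 to 0.66). The 5 KCNQ genes, most of which code for slowly activating channels, all had intervals that held 0, and their summed level was 8.58 and 8.36 FPKM.

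**Figure D4:**
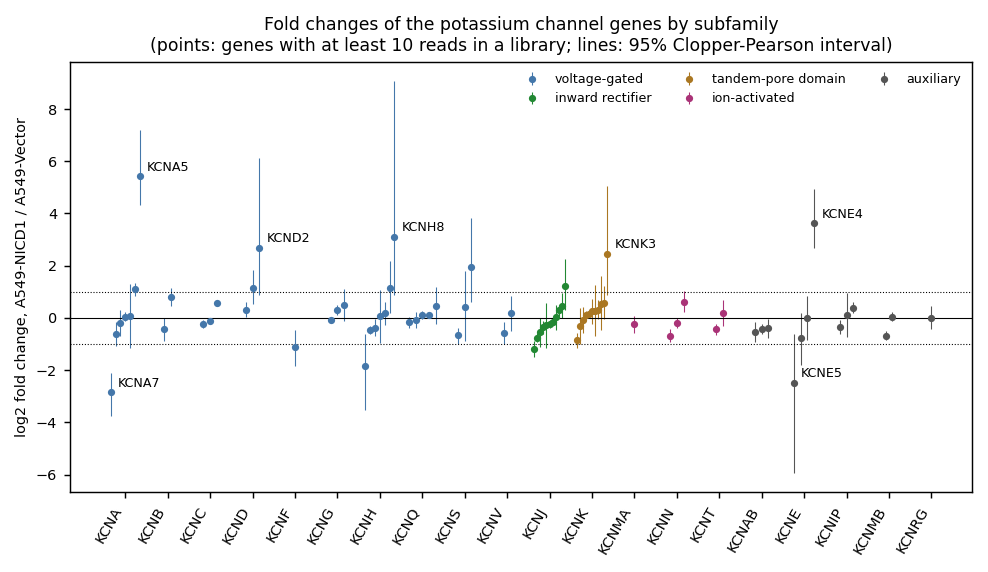
The log2 fold change (A549-NICD1 over A549-Vector, vertical axis) of the 77 potassium channel genes that had 10 or more reads in either library, by subfamily and colored by class, with 95% Clopper-Pearson intervals and dotted lines at 1 and -1. KCNA5 and KCNE4 stand highest at 5.43 and 3.62, and KCNA7 and KCNE5 lowest at -2.84 and -2.48.

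The inward rectifiers had the highest summed level of the subfamilies, at 27.7 FPKM in A549-Vector against 22.3 FPKM in A549-NICD1. KCNJ8, the pore subunit of an ATP-sensitive channel of smooth muscle, was the highest of all potassium channel genes in both libraries, at 11.7 and 10.1 FPKM, with a log2 fold change of -0.16 (interval -0.28 to -0.05). KCNJ11, its relative known from pancreatic beta cells, was at 5.41 and 3.07 FPKM, with a log2 fold change of -0.76 (interval -0.93 to -0.59). KCNJ3 and KCNJ5, whose products pair to form a channel opened by G proteins, went in opposite directions. KCNJ3 was at 1.03 FPKM in A549-Vector against 0.433 FPKM in A549-NICD1, with a log2 fold change of -1.19 (interval -1.51 to -0.88). KCNJ5 was at 0.0495 and 0.113 FPKM, with a log2 fold change of 1.22 (interval 0.30 to 2.27, or -0.11 to 2.77 with the smallest whole reads), and lies opposite C11orf45, which was at 1.46 and 0.948 FPKM. Of the 11 KCNJ genes counted, 5 had intervals below 0 and 3 had intervals above 0, against 29.3% and 29.4% of all genes.

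The tandem-pore genes, which code for the leak channels of the resting membrane, had intervals that held 0 in 9 of 11 counted cases, against 41.2% of all genes and 57.4% of those under 1 FPKM. KCNK1 was at 6.70 and 6.99 FPKM and KCNK5 at 3.70 and 3.92 FPKM. KCNK3, an acid-sensitive leak channel gene, had 3 reads in A549-Vector and 18 in A549-NICD1, with a log2 fold change of 2.46 (interval 0.87 to 5.05). With the smallest whole reads the interval of KCNK3 was -0.40 to 8.17. KCNK6 was at 1.15 and 0.612 FPKM, with an interval of -1.14 to -0.57. Among genes for channels opened by ions, KCNN1, of the small-conductance calcium-activated type, was at 3.85 and 3.20 FPKM, and KCNN2, of the same type, at 0.915 and 1.34 FPKM with an interval of 0.21 to 1.01. KCNN3 was at 0.617 and 0.371 FPKM, with an interval of -0.92 to -0.44. KCNT2, which codes for a sodium-activated channel, was at 1.68 and 1.19 FPKM, with an interval of -0.65 to -0.24. KCNU1 had 0 reads in A549-Vector against 1 in A549-NICD1, so no fold is given.

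**Figure D5:**
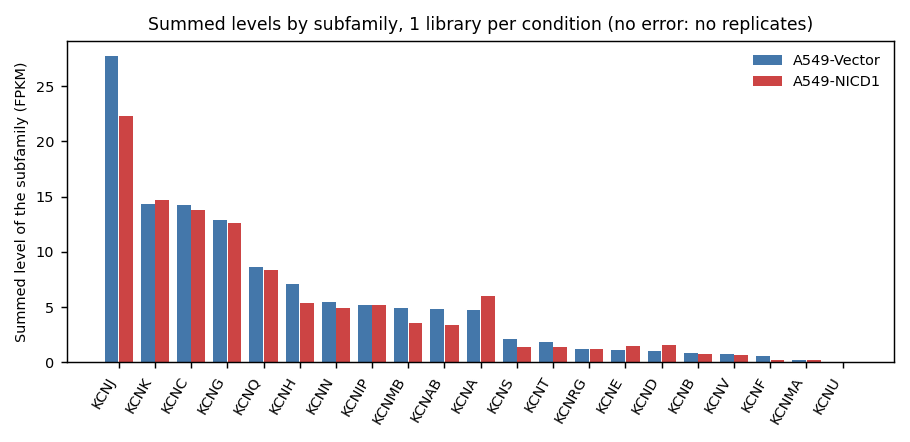
Summed FPKM (vertical axis) of each potassium channel subfamily in A549-Vector (blue) and A549-NICD1 (red), 1 library each and without error bars. The KCNJ sum goes from 27.7 to 22.3 FPKM and the KCNA sum from 4.70 to 5.99 FPKM.

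Without the scaling factor, the summed level of all 95 genes was 119 FPKM in A549-Vector against 109 FPKM in A549-NICD1. The 10 highest genes made up 51.7% and 49.7% of the sum. At a mean of 1 FPKM or more, 14 of the 29 potassium channel genes had intervals below 0 (48.3%) and 5 had intervals above 0 (17.2%). Among all genes at that level these shares were 32% and 30.8%. The median log2 fold change of the 29 genes was -0.13, and that of all genes at that level was -0.0049. With reads of 1 library a condition, fewer transcripts per cell and fewer cells that hold the transcript cannot be told apart.

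Of 29 genes of potassium handling outside the KCN symbols, 20 reached 10 reads in either library. Among these, the log2 fold change exceeded 1 for 1 gene and was under -1 for none (0), against 4.43% and 2.25% of all genes, so that these counts are at the background. The median log2 fold change of these 20 genes was -0.07. The gene above 1 was ATP1A4, a sodium pump subunit of sperm, at 0.00869 and 0.0522 FPKM. ATP1B1, a beta subunit of the sodium-potassium pump, was at 14.1 and 18.4 FPKM with an interval of 0.34 to 0.54. ABCC8, the regulatory partner of KCNJ11, was at 1.20 and 1.31 FPKM, and ABCC9, the partner of KCNJ8, at 0.133 and 0.0983 FPKM, with intervals that held 0. DPP6 and DPP10, partners of KCND channels, were listed at 0 in both libraries.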

How the data were processed

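RNA from 1 A549-NICD1 and 1 A549-Vector culture was sequenced by mRNA sequencing. The authors deposited FPKM values, 1 per gene and library, made by dividing reads by gene length and depth, although the unit is not named and was read from the values. The processing notes name hg38, Bowtie2 and HTSeq, and the annotation and the handling of strand are not given in the sources used here. Of 19225 rows, 27 named by date numbers were left out.

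Depths and reads were recovered from the deposited values alone. The ratio of depths came from 257 genes with equal reads, and the depths were the largest ones at which gene lengths came out whole. Whole reads were found for all 17178 genes above 0, and the length was the one nearest to the longest GENCODE 29 transcript with a RefSeq match. A gene's reads are known up to a whole-number factor, which leaves ratios unchanged but widens intervals at fewer reads, and the recovered reads summed to 113% of the depth. Scaling used a trimmed mean of log ratios, without the outer 30% by ratio and 5% by expression on both sides (factor 0.962), and the log2 fold change was taken with 0.5 reads added, so that changes of low genes come out too small. Genes entered counts with 10 or more reads in either library. Intervals are exact and cover counting error only, as reads are not independent molecules. Functions were tested on simulated data. Python 3.11.15, numpy 2.4.6 and scipy 1.17.1 were used.

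The genes named were KCNA5, those past a log2 fold change of 1 in either direction, the 10 highest, the highest of each subfamily, all KCNA and KCNE genes, the KCNA genes beside KCNA5, and NOTCH1. KCNAB3, KCNIP2, KCNK6, KCNN2, KCNN3, the other neighbours, the overlapping genes and those of potassium handling were named after their values were seen. Values of some genes that the rule names are not reported here. Members and lists were chosen with earlier results of these data known. Marker lists for A549, HEK293 and neurons were used, and the 4 neuron markers had summed levels of 5.39 and 5.37 FPKM. Alternatives covered scaling, pseudocount, filter and the choice of reads.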

Additional observations from a re-analysis of the deposited data

How the results depend on the processing

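The spread between cultures is unknown. No paired analysis was possible because only 1 culture was sequenced per condition. The log2 fold change of KCNA5 was between 5.37 and 5.43 under the scalings and with the smallest whole reads, and 4.59 with a pseudocount of 5 reads, but 3.72 with a pseudocount of 0.1 FPKM and 1.38 with 1 FPKM. Against 10 potassium channel genes above 1 and 5 below -1, a pseudocount of 0.1 FPKM gave 2 and 3 genes and a pseudocount of 1 FPKM gave 1 and 0. At least 100 reads summed over both libraries gave 3 and 2 genes, and with a mean of 1 FPKM or more there were 0 and 0. With no filter on reads the counts were 15 and 8. The scalings left both counts and the genes in them as they were. With the smallest whole reads they were 8 and 4, without KCNK3, KCNS2 and KCNH5, which then had fewer than 10 reads in each library. By an alternative chosen after seeing the data, the potassium channel genes with intervals above 0 and below 0 went from 18 and 25 to 14 and 23 with the smallest whole reads. The median over the potassium channel genes was 0.02 and turned negative with scaling by total depth (-0.0341), with at least 100 reads summed (-0.109) and with a mean of 1 FPKM or more (-0.133). Beside KCNA5, 43 named genes were recomputed, and values left the counting interval for 16 with a pseudocount of 1 FPKM, 7 with 0.1 FPKM and 1 with scaling by total depth. KCNA6 (-0.0107), KCNE2 (-0.0512) and KCNRG (-0.0454), whose intervals hold 0, changed sign with scaling by total depth, which moved the median of all genes to -0.06.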
